A study of Mus musculus with 7 samples.

Results

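The 10 genes described here encode surface proteins and cytokines by which fibroblastic reticular cells, the mesenchymal scaffold of the lymph node, are usually recognised. They were taken by symbol, each matching 1 row, from a table of 21176 genes. Pdpn, Bst1, Thy1 and Ly6a are the surface genes, and Il7, Il15, Il33, Kitl, Csf1 and Flt3l are the cytokine genes. The cells measured were not sorted as reticular cells. They were labelled follicular dendritic cells (FDCs), stroma that displays antigen to B cells within follicles, and were taken by cell sorting from the popliteal nodes of male mice, 8 to 12 weeks old, that had not been immunised. The groups were 4 wild-type samples (WT) and 3 samples from mice lacking Ngfr (Ngfr KO), which encodes the neurotrophin receptor p75. Nodes of several animals were pooled for each sample, so the spread between samples is a spread between pools. The knockout allele and the markers of the sort gate are not given in the sources used here.

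Reticular cells and FDCs are related stromal lineages of the node. Reticular cells of the T-cell zone carry podoplanin (Pdpn) and secrete IL-7, which keeps naive T cells alive, while IL-15 sustains natural killer cells and memory CD8 T cells. CSF1, stem cell factor (Kitl) and FLT3 ligand are growth factors for macrophages, mast cells and progenitors, and dendritic cells. IL-33 is held in the nucleus of stromal cells and acts as an alarm signal once released. Several of these genes are also active in endothelial cells or lymphocytes.

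Values below are reads scaled by 1 factor per sample, without division by gene length, where a value of 1 stands for 230.1 to 294.8 reads. Depth was 17244925 to 18873542 reads in WT and 20741770 to 21538400 in Ngfr KO, so every knockout library was deeper than every WT library. Ngfr itself had values of 0.377, 0.677, 1.30 and 1.14 in WT replicates 1 to 4 and 0.305, 0.353 and 0.184 in Ngfr KO replicates 1 to 3. The groups did not overlap, and the log2 change was -0.52 (SE 0.18, adjusted p in limma = 0.0431), with an exact two-sided permutation p of 0.0571 where 0.0286 is the smallest that 35 splits allow. The Ngfr call was lost in 12 of 19 alternatives, among them 6 of the 7 fits without 1 sample, all but the fit without WT replicate 1 (adjusted p in limma = 0.0553 to 0.108). Ngfr was covered by 46 to 104 reads in the knockout samples, and the exons behind those reads are not recorded in a table of genes.

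Genotypes were compared with limma on log2(value + 1) over the 8326 genes that reached a value of 1 in 3 or more samples, and a gene was called at a Benjamini-Hochberg adjusted p under 0.05. All 10 genes passed this filter, Thy1 only through its WT samples. Of the 10, Bst1, Il7 and Il15 were called higher in Ngfr KO, and Thy1, Kitl and Csf1 lower. The same 6 genes had groups that did not overlap. Among all genes tested, 34.2% were called, 18.3% higher and 15.8% lower, 40.9% had groups that did not overlap, and 31.3% met both conditions. On the recovered reads edgeR called 5 of the 10 (Bst1 and Il15 higher, Thy1, Kitl and Csf1 lower), against 15.2% of all genes it tested, 8.67% higher and 6.55% lower. DESeq2 called the same 6 as limma, against 22.5% of all genes it tested, 11.8% higher and 10.7% lower. The median log2 change was 0.06 over the 10 genes and 0.02 over all genes tested. In edgeR the median over the 10 genes was -0.02. The number of genes called changed when single samples were left out. It was 2844 with all samples, and separate fits gave totals of 1872 without WT replicate 1, 1803 without Ngfr KO replicate 1 and 1614 without Ngfr KO replicate 2.

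**Figure D1:**
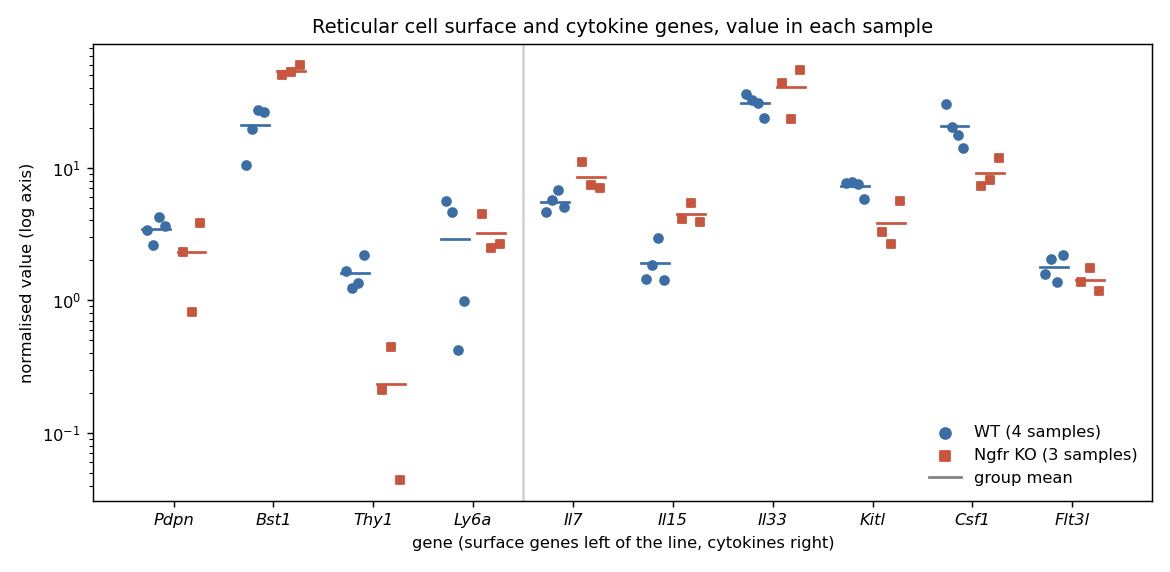
Normalised value (log axis) of each gene in the 4 WT samples (circles) and 3 Ngfr KO samples (squares), with group means as bars and surface genes left of the line. Bst1, Il7 and Il15 lie higher in every Ngfr KO sample than in any WT sample, Thy1, Kitl and Csf1 lie lower, and the other 4 genes overlap.

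Bst1 (ENSMUSG00000029082, chromosome 5, 43818885 to 43843986, plus strand, GRCm38) encodes CD157, a glycosylphosphatidylinositol-anchored enzyme that cleaves NAD and was named for its stromal expression. Its values were 10.5, 19.7, 27.2 and 26.5 in WT replicates 1 to 4 and 49.8, 52.7 and 59.8 in Ngfr KO replicates 1 to 3. WT replicate 1 was the lowest of all samples, and the knockout samples were close to each other. The mean rose from 21 ± 7.74 (SD, n = 4) to 54.1 ± 5.16 (SD, n = 3), which is 2.58-fold. The log2 change was 1.41 (SE 0.28, adjusted p in limma = 0.00342) and was called in all 20 alternative analyses of the data. Bst1 shares 98 exonic bases with Fbxl5 on the opposite strand, whose highest value in any sample was 7.15.

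Thy1 (ENSMUSG00000032011, chromosome 9, 44043384 to 44048579, plus strand) encodes CD90, a small anchored glycoprotein of T cells, neurons and fibroblasts. It had values of 1.65, 1.24, 1.36 and 2.19 in WT and 0.21, 0.441 and 0.044 in Ngfr KO. Every knockout sample was low, and Ngfr KO replicate 3 held only 11 reads, against 314 or more in any WT sample. The mean was 1.61 ± 0.424 (SD, n = 4) in WT and 0.232 ± 0.199 (SD, n = 3) in Ngfr KO, a WT level 6.96 times as high. The log2(value + 1) scale compresses a gene this low. On it the change was -1.08 (SE 0.17, adjusted p in limma = 0.00101), and edgeR on the recovered reads gave a log2 change of -2.69 (SE 0.62, adjusted p = 0.0185).

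Thy1 is also a T-cell gene. The summed level of 9 T-cell markers lay between 5.3 and 14.1 in WT and between 6.49 and 12.7 in Ngfr KO. None of the 5 T-cell genes tested was called by limma, and with WT replicate 3 left out 1 gene was called lower. The lowest unadjusted p in limma among the 5 was 0.137, for Trbc2, and edgeR and DESeq2 called 0 of 9. WT replicate 3 had the lowest T-cell sum and a Thy1 value within the range of the other WT samples. The part of T cells in the Thy1 result was not tested.

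Pdpn (ENSMUSG00000028583, chromosome 4, 143267431 to 143299564, minus strand) encodes podoplanin, the mucin-type glycoprotein that drives contraction of reticular cells and binds CLEC-2 on platelets and dendritic cells. Its values were 3.41, 2.62, 4.21 and 3.64 in WT and 2.31, 0.817 and 3.80 in Ngfr KO. Ngfr KO replicate 3 lay inside the WT range and replicate 2 far below it. The log2 change was -0.53 with a 95% interval from -1.11 to 0.05 (adjusted p in limma = 0.14). Without Ngfr KO replicate 3, Pdpn was called lower (log2 change -0.85, adjusted p in limma = 0.0253).

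Ly6a (ENSMUSG00000075602, chromosome 15, 74994877 to 74998031, minus strand) encodes Sca-1, a surface marker of progenitors, endothelium, fibroblasts and activated lymphocytes. It varied most among the WT samples, with values of 5.60, 4.65, 0.422 and 0.992, against 4.45, 2.48 and 2.64 in Ngfr KO. WT replicates 1 and 2 were high and replicates 3 and 4 low, and the knockout samples lay between them. The coefficient of variation in WT was 88.9%, against 13.1% to 37.7% for the other 9 genes. The log2 change was 0.36 with a 95% interval from -0.62 to 1.33 (adjusted p in limma = 0.553), and it turned to -0.04 without WT replicate 3. Ly6c1, a close relative in the same cluster and an endothelial surface gene, showed the same division in WT, with values of 5.27, 4.35, 0.422 and 0, and 0.229, 0.295 and 0.769 in Ngfr KO. Reads of Ly6 genes are uncertain where paralogs share sequence.

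Il7 (ENSMUSG00000040329, chromosome 3, 7569994 to 7613760, minus strand) had values of 4.67, 5.72, 6.78 and 5.04 in WT and 11.1, 7.35 and 7.08 in Ngfr KO. The groups were separated narrowly, with WT replicate 3 just below Ngfr KO replicate 3. The mean rose from 5.55 ± 0.928 (SD, n = 4) to 8.51 ± 2.24 (SD, n = 3), a log2 change of 0.52 (SE 0.19, adjusted p in limma = 0.0491). The call lies at the threshold. It was lost in 11 of 19 alternatives, among them edgeR (log2 change 0.69, adjusted p = 0.0622), and 5 of the 7 fits that left out 1 sample. Those were the fits without WT replicate 1 (adjusted p in limma = 0.116), 2 (0.0899) or 4 (0.0949) and without Ngfr KO replicate 1 (0.237, log2 change 0.34) or 2 (0.0688). An antisense transcript, Gm16685, overlaps Il7 by 105 exonic bases. Gm16685 had values of 3.14, 6.91, 6.29 and 7.76 in WT and 14.2, 11.4 and 17.1 in Ngfr KO, a log2 change of 1.15 (SE 0.25, adjusted p in limma = 0.0048). The counting is not stated to use strand, so reads of the shared bases cannot be told apart.

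Il15 (ENSMUSG00000031712, chromosome 8, 82331632 to 82403222, minus strand) rose by more than Il7. Its values were 1.44, 1.85, 2.96 and 1.43 in WT and 4.12, 5.44 and 3.91 in Ngfr KO. All 3 knockout samples were above the highest WT sample, replicate 3. The mean rose 2.34-fold, from 1.92 ± 0.723 (SD, n = 4) to 4.49 ± 0.832 (SD, n = 3), and the log2 change was 0.93 (SE 0.19, adjusted p in limma = 0.00429). Il15 was called higher in all 19 alternatives that tested it.

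Csf1 (ENSMUSG00000014599, chromosome 3, 107741048 to 107760469, minus strand) had values of 30.3, 20.2, 17.8 and 14.2 in WT and 7.25, 8.14 and 11.9 in Ngfr KO. WT replicate 1 was the highest of all samples, and every knockout sample was below every WT sample. The WT mean of 20.6 ± 6.9 (SD, n = 4) was 2.26 times the knockout mean of 9.11 ± 2.49 (SD, n = 3). The log2 change was -1.07 (SE 0.25, adjusted p in limma = 0.00703), and Csf1 was called lower in all 20 alternatives.

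Kitl (ENSMUSG00000019966, chromosome 10, 100015630 to 100100416, plus strand) had values of 7.72, 7.84, 7.54 and 5.83 in WT and 3.26, 2.67 and 5.64 in Ngfr KO. WT replicate 4 and Ngfr KO replicate 3 nearly met. The mean was 7.23 ± 0.945 (SD, n = 4) in WT and 3.86 ± 1.57 (SD, n = 3) in Ngfr KO, a log2 change of -0.80 (SE 0.21, adjusted p in limma = 0.012). Kitl lost its call without Ngfr KO replicate 1 (adjusted p in limma = 0.051), without Ngfr KO replicate 2 (0.0631) and with no filter on low values (0.0516).

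Il33 (ENSMUSG00000024810, chromosome 19, 29925114 to 29960718, plus strand) was the most abundant cytokine gene of the 6 per length in both genotypes. Its values were 35.7, 32.5, 30.7 and 23.9 in WT and 43.3, 23.1 and 54.6 in Ngfr KO. Ngfr KO replicate 2 was the lowest of all samples and replicate 3 the highest, so the groups overlapped. The log2 change was 0.31 with a 95% interval from -0.27 to 0.90 (adjusted p in limma = 0.38).

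Flt3l (ENSMUSG00000110206, chromosome 7, 45129788 to 45136432, minus strand) had values of 1.57, 2.04, 1.37 and 2.18 in WT and 1.37, 1.74 and 1.18 in Ngfr KO. Both groups spread over nearly the same range. The log2 change was -0.20 with a 95% interval from -0.54 to 0.15 (adjusted p in limma = 0.353), and with array weights it was called lower (-0.28, adjusted p in limma = 0.0439). Gm45713, a protein-coding gene model on the same strand, shares 856 exonic bases with Flt3l and has no value in these data. The reads counted for Flt3l are therefore uncertain.

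**Figure D2:**
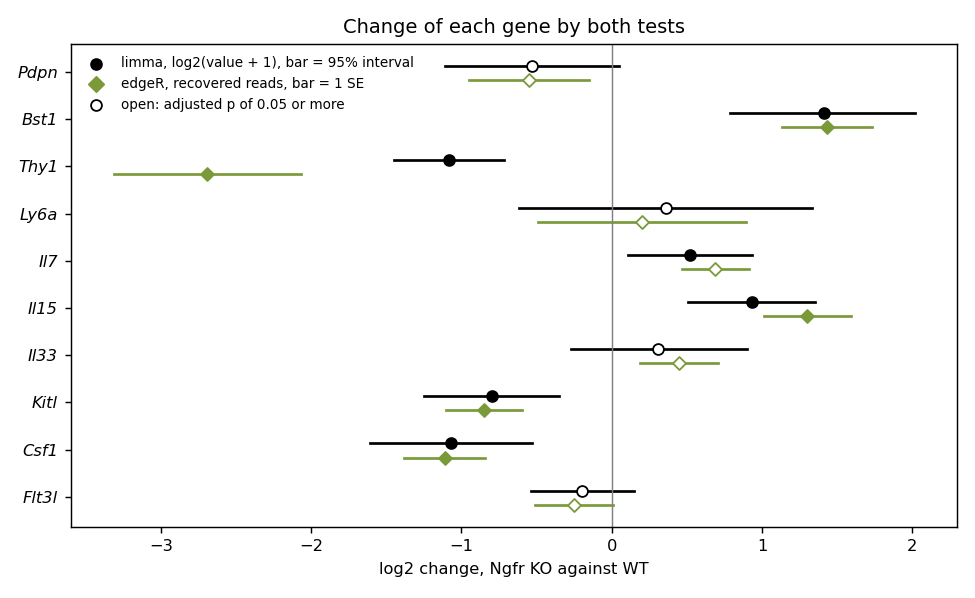
Log2 change of each gene in Ngfr KO against WT, from limma on log2(value + 1) with its 95% interval (circles) and from edgeR on recovered reads with 1 SE (diamonds). Filled symbols are called, and the tests part in size for Thy1 (-1.08 and -2.69) and in the call for Il7 (adjusted p in limma = 0.0491, edgeR adjusted p = 0.0622).

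The sequences before the transcription starts of Csf1 and Il33 are shown because their matches to promoter motifs differ. Csf1 was the cytokine gene with the largest fall, and Il33 the most abundant cytokine gene per length. RefSeq promoter windows (GRCm38.p6) were matched for 5 of the 10 genes, namely Pdpn, Il33, Kitl, Csf1 and Flt3l. The 250 bases before the start were searched on both strands for 5 motifs. These were the TATA box, spelled TATAAA, the GC box, spelled GGGCGG, the AP-1 site, spelled TGANTCA, the site of the KLF family, spelled CCACCC, and the NF-kB consensus. Capitals mark matches.
Csf1, chr3:107760470-107760719, minus strand: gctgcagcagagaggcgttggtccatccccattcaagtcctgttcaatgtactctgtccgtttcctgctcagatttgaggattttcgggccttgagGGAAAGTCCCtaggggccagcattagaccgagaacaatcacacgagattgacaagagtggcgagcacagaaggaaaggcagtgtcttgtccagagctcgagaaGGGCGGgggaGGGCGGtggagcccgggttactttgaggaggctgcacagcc
Il33, chr19:29924863-29925112, plus strand, the first of its 2 starts: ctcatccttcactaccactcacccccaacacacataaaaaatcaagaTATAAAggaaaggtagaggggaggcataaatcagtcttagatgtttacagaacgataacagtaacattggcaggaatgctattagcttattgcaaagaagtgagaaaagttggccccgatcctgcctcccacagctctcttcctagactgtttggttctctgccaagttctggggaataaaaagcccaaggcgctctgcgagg
The Csf1 window held 1 NF-kB match, GGAAAGTCCC, and 2 GC boxes. The printed Il33 window held 1 TATAAA match, toward the end far from the start, and no match to the other motifs. Of all 32851 windows, 3.9% held an NF-kB match, 32.7% a GC box, 12.4% the TATA motif, 6.75% the AP-1 motif and 28.1% the KLF motif. These matches describe letters and were not tied to any value above.

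Levels were then compared between genes per kb of merged exon (GENCODE M21). In WT the order from the top was Il33 (10.6 per kb), Bst1 (6.32), Csf1 (3.9), Ly6a (2.42), Pdpn (1.91), Kitl (1.22), Il7 (0.981), Il15 (0.849), Thy1 (0.538) and Flt3l (0.461). Neighbours in this order overlapped in their sample ranges except Il33 over Bst1 and Pdpn over Kitl. In Ngfr KO the order was Bst1 (16.3 per kb), Il33 (14.0), Ly6a (2.65), Il15 (1.99), Csf1 (1.73), Il7 (1.5), Pdpn (1.27), Kitl (0.653), Flt3l (0.368) and Thy1 (0.0774). There Il33 lay above Ly6a, Kitl above Flt3l and Flt3l above Thy1 without overlap, and the other neighbours overlapped. Among all genes tested, Bst1 stood at percentile 92.1 of the level per kb in WT and 96.6 in Ngfr KO, and Thy1 at 47.1 and 2.78.

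**Figure D3:**
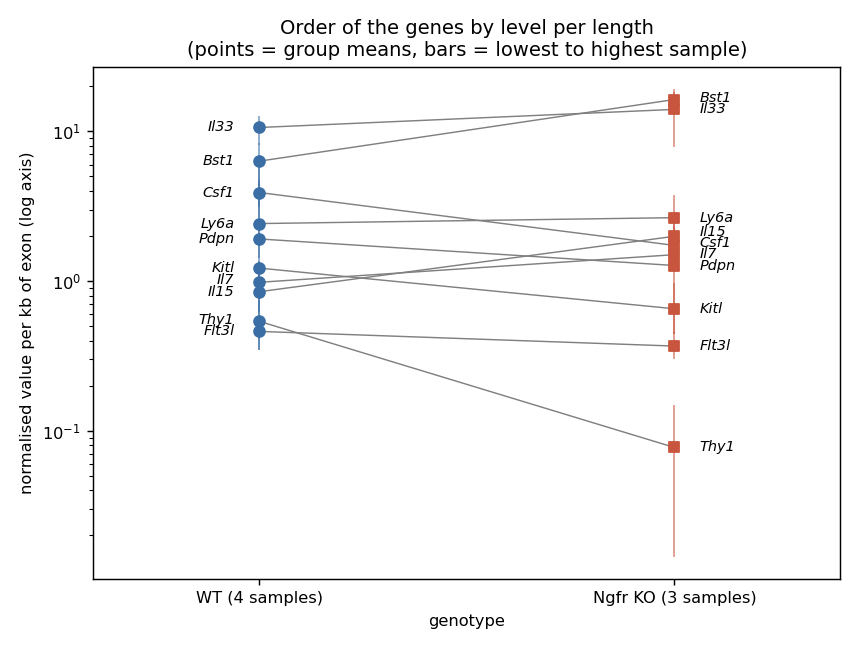
Normalised value per kb of exon (log axis) of the 10 genes in WT and Ngfr KO, with points for group means, bars from the lowest to the highest sample and lines joining each gene. Il15 moved from 0.849 to 1.99 per kb while Csf1 moved from 3.9 to 1.73, so that their lines cross.

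Ratios within a sample do not depend on how the libraries were scaled. The 3 pairs given here were chosen after the values were seen, and no test was run on them. The Csf1 level per kb was 9.03, 4.67, 2.57 and 4.25 times that of Il15 in WT and 0.753, 0.64 and 1.31 times in Ngfr KO. The Bst1 level per kb was 1.69, 4.12, 3.54 and 3.98 times that of Pdpn in WT and 11.8, 35.3 and 8.62 times in Ngfr KO. In both of these pairs every knockout sample lay beyond every WT sample. The Bst1 level per kb was 0.256, 0.527, 0.769 and 0.966 times that of Il33 in WT and 1.0, 1.98 and 0.954 times in Ngfr KO, so for this pair the groups overlapped.

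Of 15 listed receptors and binding partners of these proteins, 8 passed the filter. From these 8, limma called 3 higher and 1 lower, where 34.2% of all genes tested were called. Il15ra, the chain that presents IL-15 to neighbouring cells, had values of 3.99, 4.58, 4.70 and 4.94 in WT and 10.4, 5.75 and 8.52 in Ngfr KO. Its groups did not overlap, and like Il15 it was higher in Ngfr KO, by 0.70 on the log2 scale (SE 0.19, adjusted p in limma = 0.0143). Without Ngfr KO replicate 1 the adjusted p in limma of Il15ra was 0.0798. Il2rg, the common gamma chain used by IL-7 and IL-15, had a log2 change of 0.20 with a 95% interval from -0.28 to 0.69 (adjusted p in limma = 0.494). Il2rb reached at most 43 reads and Il7r at most 305 in any sample, and edgeR called neither (adjusted p = 0.529 and 0.611).

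Clec1b encodes CLEC-2, the podoplanin receptor. Its values were 6.41, 5.37, 1.93 and 1.42 in WT and 1.55, 0.98 and 0.196 in Ngfr KO, with WT replicates 1 and 2 the highest. Clec1b was called lower (log2 change -1.23, SE 0.37, adjusted p in limma = 0.0242), yet the highest Ngfr KO sample exceeded the lowest WT sample, and the adjusted p in edgeR was 0.0805. The call was also lost without WT replicate 1 (adjusted p in limma = 0.0598) or 2 (0.0617) and without Ngfr KO replicate 2 (0.0587) or 3 (0.104).

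Among podoplanin's partners in the same membrane, the tetraspanin Cd9 rose from 70.9 ± 21.7 (SD, n = 4) to 129 ± 10.4 (SD, n = 3), a log2 change of 0.90 (adjusted p in limma = 0.0211). Msn, which encodes the actin linker moesin, rose by 0.62 on the log2 scale (adjusted p in limma = 0.0292). Both calls were lost in several of the fits that left out 1 sample. For Cd9 the adjusted p in limma was 0.0519 without WT replicate 1 or 2 and 0.0568 without Ngfr KO replicate 1. For Msn it was 0.0588, 0.0672 and 0.057 without WT replicates 1, 2 and 4, and 0.166 without Ngfr KO replicate 1. The hyaluronan receptor Cd44 (0.02, 95% interval -0.50 to 0.55), the linker Ezr (-0.11, -0.51 to 0.30) and the galectin Lgals8 (-0.34, -0.74 to 0.06) were not called on the log2 scale, with adjusted p-values in limma of 0.945, 0.674 and 0.169. The sign of Cd44 turned in 4 of 19 alternatives and that of Ezr in 1.

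The receptors of the growth factors were near the lower limit of the data. Kit was covered by 42 to 160 reads, Csf1r by 67 to 262 and Flt3 by 0 to 126 per sample, and the IL-33 receptor chains Il1rl1 and Il1rap by at most 68 and 177. edgeR called none of them, with adjusted p-values from 0.0823 for Flt3 to 0.672 for Csf1r. Flt3 had values of 0.0272, 0.101, 0.00869 and 0 in WT and 0.254, 0.427 and 0.216 in Ngfr KO, so its groups did not overlap, and DESeq2 called it higher (adjusted p = 0.0152). Il1rap was lower in every Ngfr KO sample than in any WT sample, with an adjusted p in edgeR of 0.212.

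**Figure D4:**
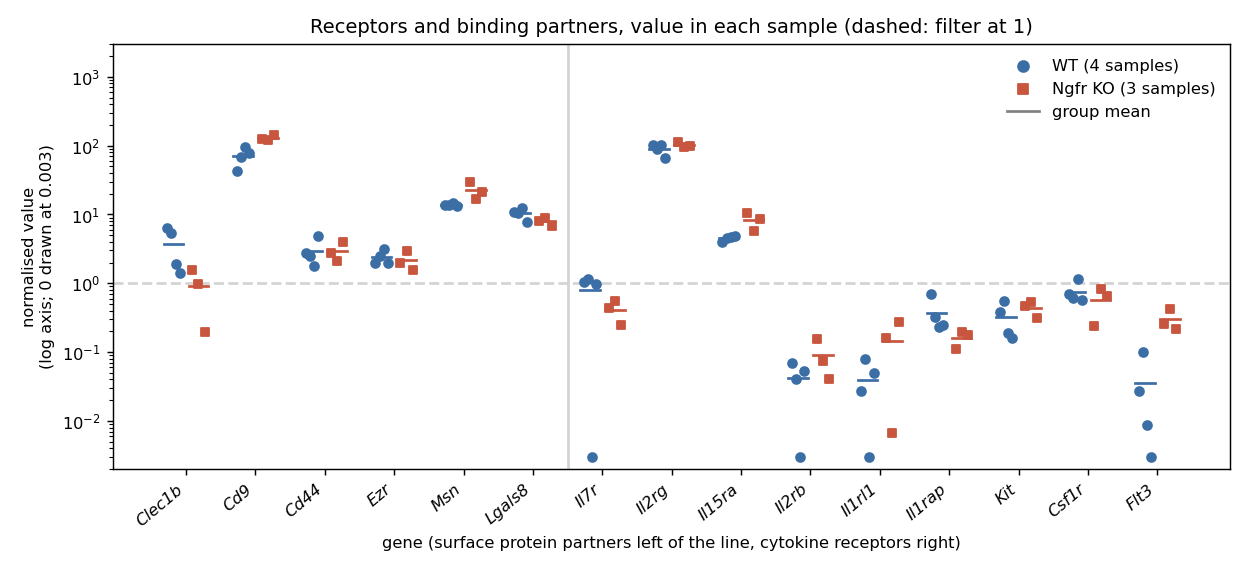
Normalised value (log axis, values of 0 drawn at 0.003) of 15 receptors and binding partners in each sample, surface protein partners left of the line and cytokine receptors right, with the filter at 1 dashed. Il15ra and Cd9 lie higher in every Ngfr KO sample than in any WT sample, and Kit, Flt3, Il1rl1, Il1rap and Il2rb stay under 1 in all 7 samples.

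Of 19 other genes of reticular stroma, 13 passed the filter, and limma called 4 higher and 1 lower, with a median log2 change of 0.26. The share called among all genes tested was 34.2%. Dcn, which encodes the proteoglycan decorin, rose from 48.0 ± 14.5 (SD, n = 4) to 198 ± 48.6 (SD, n = 3), a log2 change of 2.03 (adjusted p in limma = 4.37e-04). Ccl19, the T-zone chemokine, rose by 1.24 and Des, the intermediate filament desmin, by 1.42 on the log2 scale (adjusted p in limma = 0.00777 and 0.00207). Pdgfra, a receptor of platelet-derived growth factor, rose by 0.63 (adjusted p in limma = 0.044), and edgeR gave 0.0828. The leptin receptor Lepr fell by 1.04 on the log2 scale (adjusted p in limma = 0.0197). Without WT replicate 2 or Ngfr KO replicate 2 or 3, the adjusted p in limma of Lepr was 0.0507, 0.0823 and 0.0611. For Pdgfra it was 0.0828 to 0.107 without WT replicate 1 or 3 or any 1 of the Ngfr KO replicates. The fibrillar collagens Col1a2 and Col3a1 had log2 changes of 0.01 and 0.01 (adjusted p in limma = 0.975 and 0.991).

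Of 13 further survival and growth factors of stroma, 7 passed the filter, with 3 called higher and 2 lower and a median log2 change of 0.53. These calls stand beside 34.2% called among all genes tested. Over all 13 genes edgeR gave a median of the opposite sign, -0.30, and called 2 higher and 2 lower. Tslp, an epithelial and stromal cytokine below the filter, was lower in every Ngfr KO sample than in any WT sample, and was called lower by DESeq2 (log2 change -2.26, adjusted p = 0.0167) and not by edgeR (adjusted p = 0.0845). The B-cell survival factor Tnfsf13b (BAFF) rose from 4.53 ± 1.67 (SD, n = 4) to 9.43 ± 1.28 (SD, n = 3), a log2 change of 0.97 (adjusted p in limma = 0.0112). Tnfsf11 (RANKL) rose by 1.35 on the log2 scale (adjusted p in limma = 0.00165), having passed the filter through Ngfr KO and 1 WT sample. Igf1, a growth factor of many tissues, fell from 25.0 ± 4.32 to 9.52 ± 0.574, a log2 change of -1.29 (adjusted p in limma = 6.36e-04). The Notch ligand Jag1 fell by 0.79 on the log2 scale (adjusted p in limma = 0.00767), passing the filter only through WT. The third gene called higher was the Notch ligand Dll4 (log2 change 0.56, adjusted p in limma = 0.0381), named after its values were seen, for which edgeR gave 0.0523. Without any 1 sample other than WT replicate 3, Dll4 was not called (adjusted p in limma = 0.0588 to 0.128).

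Among 11 relatives of the surface and cytokine genes in the table, 6 passed the filter and 2 were called, both higher and both of the Ly6 cluster. Over all genes tested, limma called 34.2%, and 18.3% higher. Ly6k rose by 1.21 (adjusted p in limma = 0.00716) and Ly6i by 0.82 on the log2 scale (adjusted p in limma = 0.00319), with groups that did not overlap. Cd38, the paralog of Bst1 that likewise cleaves NAD, had values of 9.13, 7.34, 4.62 and 3.49 in WT and 4.84, 4.47 and 1.39 in Ngfr KO. Its log2 change was -0.68 with a 95% interval from -1.39 to 0.04 (adjusted p in limma = 0.124).

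Marker lists of the cell types that the sorted samples could hold were read beside these results. In bulk RNA, fewer cells of a type and less RNA per cell cannot be told apart. Of 13 FDC markers, 12 were called higher, where limma called 18.3% of all genes tested higher. Their summed level ran from 1829.7 to 5129.6 in WT and from 7979 to 10483 in Ngfr KO. No marker was at 0 in any sample. Fcer2a rose by 3.13, Madcam1 by 2.69, Mfge8 by 2.57 and Coch by 2.21 on the log2 scale (adjusted p in limma from 1.35e-04 to 0.00446). The labelled cell type thus had its defining markers in all 7 samples. This list moved in the same direction as Bst1, Il7 and Il15. So did the sum of the 19 other reticular genes, from 169.9 to 370 in WT and from 423 to 470.3 in Ngfr KO. Dcn alone held 37.5 to 69.3 of that reticular sum in WT and 151 to 248 in Ngfr KO. WT replicate 1 was lowest in the FDC sum, in Bst1 and in Il7 (4.67). Il15 was lowest in WT replicate 4 (1.43), with replicate 1 close to it (1.44). The WT FDC sum was highest in replicate 4, where Cxcl13, the marker not called, held 2905 of 5129.6. Mfge8, Madcam1, Coch, Enpp2 and Sox9 were also highest in WT replicate 4. Il15 was highest in WT replicate 3 (2.96), as were Fcer2a, Clu, Prnp, Vcam1 and Icam1. Within Ngfr KO, replicate 3 had the highest FDC sum and the highest Bst1 value (59.8). Its Cxcl13 value was 5277, against 2731 and 2352 in replicates 1 and 2. Il7 (7.08) and Il15 (3.91) were lowest in replicate 3, as were Fcer2a, Fcgr2b, Clu, Enpp2, Prnp and Icam1. Cr2, Madcam1, Coch and Vcam1 were highest there. Il15 was highest in Ngfr KO replicate 2 (5.44), as were Fcer2a, Fcgr2b, Mfge8, Clu and Prnp. The part of FDC content in the Bst1, Il7 and Il15 results was not tested.

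Of 11 blood endothelial markers, 10 passed the filter and all 10 were called lower, where limma called 15.8% of all genes tested lower. Among these markers were Ptprb (-2.04), Kdr (-1.84), Cldn5 (-1.82) and Erg (-1.61) by log2 change. The summed level of the 11 markers lay between 124 and 169.8 in WT and between 28.1 and 51.1 in Ngfr KO, and no marker was at 0. All 5 lymphatic endothelial markers in the table were called lower, including Prox1 (-1.72), Reln (-1.65), Ackr4 (-1.62) and Flt4 (-1.18), their sums lying between 63.5 and 127 in WT and between 20 and 44 in Ngfr KO. Reln, and Esam among the blood endothelial markers, passed the filter only through WT samples. edgeR called 3 of the 5 lymphatic and 10 of 11 blood endothelial genes lower, against 6.55% of all genes it tested. The fifth lymphatic gene, Lyve1, had overlapping groups and an adjusted p in limma of 0.0465, and its call was lost in 12 of 20 alternatives. Among these were the fits without WT replicate 1, 2 or 3 and without Ngfr KO replicate 2 or 3 (adjusted p in limma = 0.0753 to 0.169). Without Ngfr KO replicate 3, Ackr4 was not called either (adjusted p in limma = 0.0569). Both lists moved in the same direction as Csf1, Kitl and Thy1. Within WT, replicate 1 had the highest Csf1 value and the highest sum of both lists, and replicate 4 the lowest. In WT replicate 4 Kitl was also lowest (5.83), but Thy1 was highest (2.19). Within Ngfr KO, replicate 3 had the lowest sum of both lists and the lowest Thy1 value (0.044). That sample nevertheless had the highest Csf1 (11.9) and Kitl (5.64) values of the knockout samples. Endothelial cells are known to express Kitl and Ly6a, and lymphatic endothelium Pdpn. The part of endothelial RNA in these results was not tested.

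**Figure D5:**
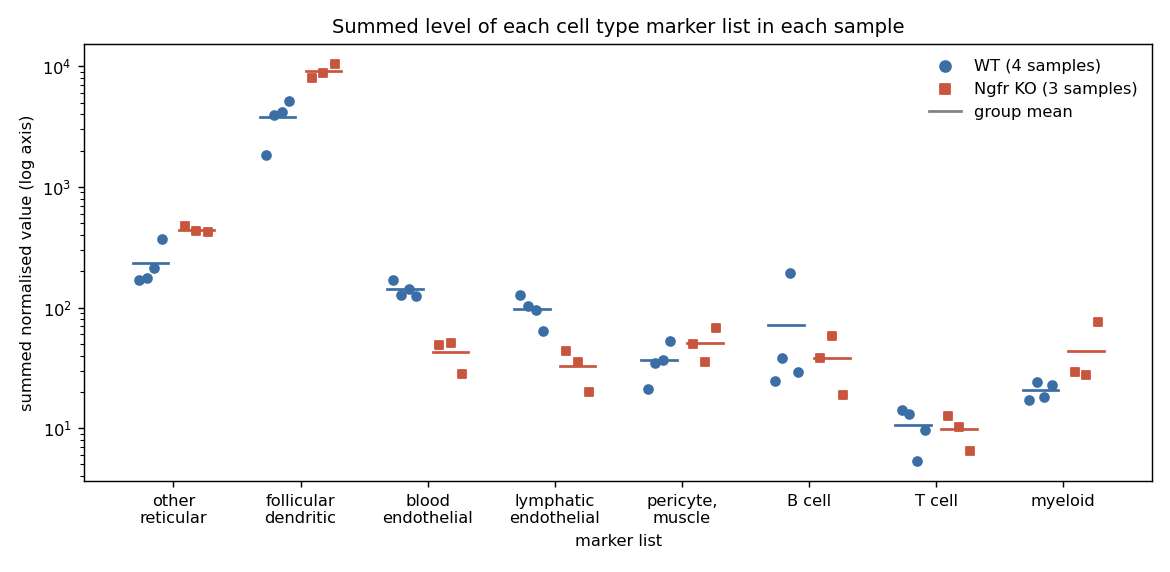
Summed normalised value (log axis) of each marker list in the 4 WT samples (circles) and 3 Ngfr KO samples (squares), with group means as bars. FDC markers (1829.7 to 5129.6 in WT, 7979 to 10483 in Ngfr KO) lie higher in every Ngfr KO sample than in any WT sample. The other reticular genes and the myeloid markers also lie higher in this way. Both endothelial lists lie lower in every Ngfr KO sample than in any WT sample, and the pericyte, B-cell and T-cell sums overlap.

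Of 8 pericyte and smooth muscle markers, 4 passed the filter and 2 were called higher, Kcnj8 (log2 change 0.73, adjusted p in limma = 0.0135) and Myh11 (0.79, 0.0336). edgeR gave 0.0231 and 0.0732 for them, and over all genes tested limma called 18.3% higher. Without Ngfr KO replicate 1 the adjusted p in limma of Kcnj8 was 0.0703, and without WT replicate 1 or 3 or Ngfr KO replicate 2 or 3 that of Myh11 was 0.0593 to 0.113. B-cell markers summed to 24.8 to 193 in WT, the highest in replicate 3 owing to Igkc, and to 19.0 to 57.7 in Ngfr KO. Ms4a1 (CD20) was the 1 B-cell gene called (log2 change 0.79, adjusted p in limma = 0.0472), its groups overlapped, since Ngfr KO replicate 3 at 1.92 lay inside the WT range, and edgeR called 0 of 8 B-cell genes. DESeq2 called Ms4a1 higher (adjusted p = 0.0225). In limma no B-cell gene was called without WT replicate 1, 3 or 4 or without Ngfr KO replicate 1 or 2. Without WT replicate 2 limma called 1 higher, and without Ngfr KO replicate 3 it called 2 higher. Of 9 myeloid markers in the table, 4 passed the filter and 2 were called higher, and their sum was 17.1 to 24.2 in WT against 27.4 to 75.4 in Ngfr KO, the highest in Ngfr KO replicate 3. Cd14, a lipopolysaccharide co-receptor, rose by 1.61 on the log2 scale (adjusted p in limma = 9.83e-04), while the macrophage markers Adgre1, Itgam, C1qa and C1qb were at 0 in at least 1 sample each. C1qb, a complement gene of macrophages with at most 41 reads, moved the other way, with values of 0.16, 0.153, 0.139 and 0.0114 in WT and 0.00363, 0 and 0 in Ngfr KO. C1qb was below the filter of limma and was called lower by edgeR (adjusted p = 0.0274) and DESeq2 (adjusted p = 0.00123). Cd68, also below that filter, was higher in every Ngfr KO sample (0.316 to 1.23) than in any WT sample (0.122 to 0.265). DESeq2 called Cd68 higher (adjusted p = 0.0152), and edgeR did not (adjusted p = 0.0567). The other limma call was Lyz2 (lysozyme, log2 change 1.70, adjusted p in limma = 0.0336), for which edgeR gave an adjusted p of 0.0576. The Lyz2 call was lost without any 1 sample other than WT replicate 1 and Ngfr KO replicate 2 (adjusted p in limma = 0.0601 to 0.147).

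Within genotypes the 10 genes did not vary together. Over the 7 samples, Pearson's r between deviations from the group means ran from -0.85 (Thy1 and Kitl) to 0.88 (Il33 and Kitl) over the 45 pairs. Csf1 and Kitl had r = 0.70, Bst1 and Ly6a -0.84, and Il7 and Il15 0.41. By the same measure each gene had tested genes with r of 0.98 or more, as 7 samples allow. The closest were Abca13 and Ostc to Pdpn, Agpat4 and Pex2 to Il15, Bace1 and Mapk6 to Csf1, and Dnajc15 and Chchd1 to Kitl. These are descriptions over samples that share their library preparation.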

How the data were processed

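RNA of sorted cells was turned into cDNA with the SMART-Seq v4 kit and into libraries with Nextera XT, per the labels' protocols. The submitters' processing notes name bcl2fastq 2.20.0.422 and the build mm10. The aligner, counter, annotation and TMM software are not given in the sources used here. One table holds the signal of each gene as the authors deposited it, named for TMM scaling. In every sample 100% of the deposited values were whole multiples (within 0.05) of 1 step, so whole reads were recovered by division. Symbols are those of the table. Positions and exon lengths came from GENCODE M21 (GRCm38), which matched 21137 identifiers and not 39.

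limma 3.58.1 in R 4.3.3 (lmFit, eBayes with trend, no covariates) was run on log2(value + 1), where the pseudocount is worth 230.1 to 294.8 reads and understates changes of low genes. edgeR 4.0.16 (quasi-likelihood, filterByExpr, TMM) called 2551 of 16751 genes on the recovered reads, 15.2%, and DESeq2 1.42.0 called 22.5%. An edgeR SE was taken as the log2 change over the square root of F. Both limma and edgeR were also run on simulated data, and the outcome is not reported here. Ngfr, which failed the filter, was added to the fit. Read counts carry more than counting error, since amplified reads are not independent molecules. The design text calls the pools independent samples, and p-values measure the spread between pools.

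Named were Ngfr, the 10 genes, listed partners that passed the filter, and from each other list up to 4 called genes with the largest change and separated groups. Other names were chosen after values were seen. The genes and lists were chosen with earlier results of these data known.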

Additional observations from a re-analysis of the deposited data

Results flagged for a closer look

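Of 11 genes examined for a WT sample standing far from the other 3, where chance gives about 0.55 such genes, Kitl was picked out. WT replicate 4 had a Kitl value of 5.83 while the remaining WT samples lay between 7.54 and 7.84, and this gap took 0.851 of the range of the group. Without WT replicate 4 the log2 change of Kitl was -0.89 against -0.80 with it, and Kitl was called lower in both fits.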

How the results depend on the processing

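Each result was recomputed under 20 alternatives, 7 of which left out 1 sample. Bst1, Thy1, Il15 and Csf1 kept direction and call wherever they were tested, and the calls of Il7 and Kitl were lost in 11 and 3 of 19. Ly6a reversed to -0.04 on the log2 scale without WT replicate 3, and its range over the fits without 1 sample was -0.04 to 0.70. The number of the 10 genes called was 4 to 7 when 1 sample was left out and 2 of the 3 tested when 3 or more samples had to reach a value of 10, which left no value for Ngfr and 7 of the genes. That filter tested 1297 genes and called 535, 67.1% of them higher against 53.7% as reported. Array weights called 4881 genes, and the cause was not tested. Leaving out 1 sample gave 1614 to 3006.

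Ngfr kept its direction in all 19 alternatives that tested it and its call in 7. DESeq2 called Ngfr lower (log2 change -1.57, adjusted p = 0.0132). So did limma with both the filter and the pseudocount at 0.1 (log2 change -1.26, adjusted p in limma = 0.0394). Its log2 change was -1.55 with edgeR, -1.26 with a pseudocount of 0.1, -0.52 with no filter, -0.49 with median ratio scaling and -0.47 with quantile normalization, all with an adjusted p above 0.05, and -0.66 to -0.41 without 1 sample, where 6 of 7 fits lost the call. With the replicate number as a block it was -0.45, 2719 genes and 5 of the 10 were called, and Il7 (adjusted p in limma = 0.116) was not. The block leaves WT replicate 4 without a partner and so without weight. Deviations of same-numbered samples correlated at 0.298, -0.059 and -0.011 across genes, so the numbers were not taken as pairs, and WT replicates 2 and 3 did not correlate best with their own number. No scaling moved the median of all genes by over 0.1. Receptors covered by few reads, such as Il2rb with at most 43, allow only large differences to be seen.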
